A study of Mus musculus with 6 samples.

Results

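Maternal mRNA storage and turnover factors were examined as a group of 10 genes, Zar1, Zar1l, Ybx2, Cpeb1, Eif4e1b, Pabpn1l, Dcp1a, Dcp2, Zfp36l1 and Zfp36l2, taken by name from the 23308 gene symbols measured. The growing mouse oocyte makes and stores a large pool of mRNAs, keeps many of them untranslated, and translates or destroys them on schedule after transcription stops. ZAR1 and its relative ZAR1L bind maternal mRNAs and take part in their storage, YBX2 is a germ cell cold-shock protein that packages mRNA, and CPEB1 binds cytoplasmic polyadenylation elements to set poly(A) tail length. EIF4E1B is an oocyte cap-binding protein, PABPN1L an oocyte poly(A)-binding protein, DCP2 the decapping enzyme and DCP1A its cofactor, while ZFP36L1 and ZFP36L2 bind AU-rich elements and lead mRNAs to decay.

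The libraries came from ICR-background females aged 21 to 23 days that had received PMSG and hCG, with 60 oocytes or embryos in each. Embryos at the 4-cell stage gave 1 library from YAP-/- mothers (called YAP-null) and 1 library from wild-type mothers, and both sets of mothers had been mated. For these libraries the titles and developmental stage say 4-cell embryo and were used, although the source name says GV oocyte. Oocytes at the germinal vesicle (GV) stage, before meiosis resumes, gave 2 YAP-null and 2 wild-type libraries, numbered 1 and 2. YAP, encoded by Yap1, is the coactivator controlled by the Hippo pathway, and the series is titled after its role in switching on the embryo's genome. The YAP-null embryos carry the same Yap1-deleted label as the oocytes. How and in which cells Yap1 was deleted, the genotype of the fathers and the number of females behind each library were not stated in the labels. Nothing there says that the numbered libraries came from separate animals, so p-values between GV oocytes measure only the spread between them, which may be technical. Those of the stage test also take in how far the stage difference varied between genotypes, each with 1 library at the 4-cell stage. Expression is in FPKM, which scales fragments by transcript length and library size, a scale on which levels of different genes can be compared. FPKM is relative to each library and does not give RNA amounts per oocyte or embryo.

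In the libraries as a whole, 9984 to 10823 symbols reached 1 FPKM. The tables hold no read counts, and relative depth, judged from the width of the deposited bounds, was 0.808 (YAP-null 4-cell), 0.975 (wild-type 4-cell) and 0.368 to 0.447 (other GV libraries) of that of wild-type GV library 1. Yap1 itself was at 33.3 and 89.7 FPKM in the YAP-null and wild-type 4-cell libraries, and at 10.8 and 10.04 FPKM in YAP-null against 248 and 154 FPKM in wild-type GV oocytes. Of 12 oocyte marker genes, 11 reached 1 FPKM in every GV library and Sohlh1 was listed at 0 in each. Summed granulosa and cumulus cell markers (12 genes) stayed at 2.60 and 3.13 FPKM in the YAP-null and wild-type 4-cell libraries and at 31.0 to 38.7 FPKM in GV oocytes.

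The GV oocyte held most of the group at very high level. Zar1 ranked between 15 and 29 among all symbols in the 4 GV libraries, and Eif4e1b between 26 and 88. The means over the 4 GV libraries were 972 ± 199 FPKM for Zar1, 635 ± 225 for Eif4e1b, 382 ± 136 for Zar1l, 305 ± 122 for Pabpn1l, 294 ± 70.5 for Cpeb1, 288 ± 94.4 for Ybx2 and 145 ± 15.2 for Dcp1a (SD, n = 4). In this order the ranges of Zar1 and Eif4e1b overlapped, as did those of Zar1l, Pabpn1l, Cpeb1 and Ybx2, while every Zar1 value lay above every Zar1l value. The remaining members were scarce: Dcp2 averaged 8.73 ± 2.67 FPKM, Zfp36l2 2.34 ± 0.698 FPKM and Zfp36l1 0.311 ± 0.127 FPKM. Zfp36l1 was under 1 FPKM in every library and entered no test. The deposited tables (mm9) list Cpeb1 on chromosome 7 from 88491911 to 88599644, Eif4e1b on chromosome 13 from 54885363 to 54889819, Pabpn1l on chromosome 8 from 125143370 to 125146635, Dcp2 on chromosome 18 from 44540153 to 44584623, Zfp36l1 on chromosome 12 from 81208746 to 81214000 and Zfp36l2 on chromosome 17 from 84583268 to 84587287; whether these starts count from 0 or 1 is not stated.

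**Figure D1:**
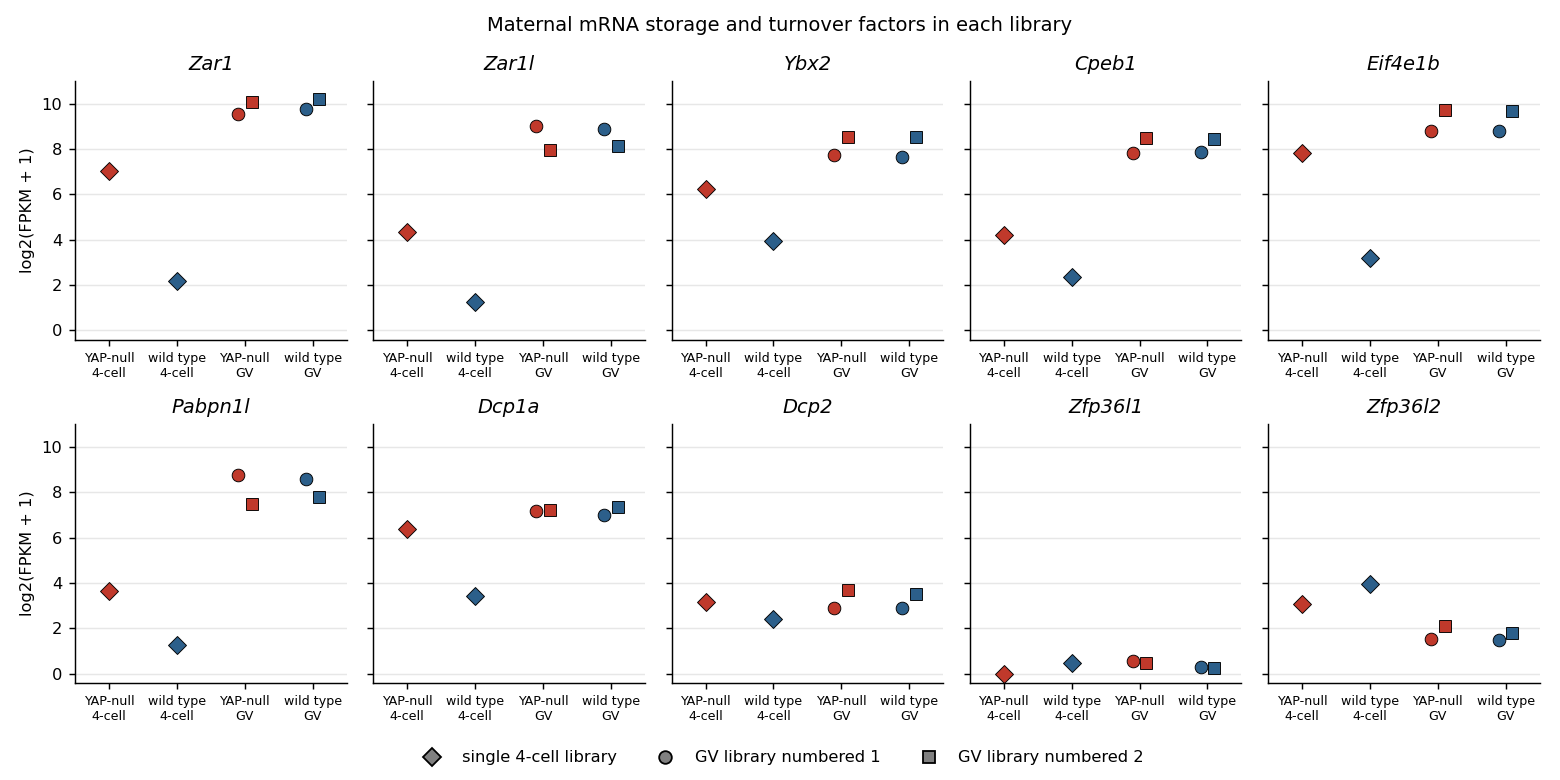
Level of each gene as log2(FPKM + 1), vertical axis, in YAP-null and wild-type 4-cell embryos and in YAP-null and wild-type GV oocytes; each point is 1 library and no error is drawn. The 7 genes from Zar1 to Dcp1a were high in GV oocytes and lowest in the wild-type 4-cell library.

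The 3′ ends of the members were searched for the sequence that CPEB1 is known to bind. A group of 10 genes is too small to compare how often it occurs with the rate over all coding genes. The longest GENCODE M21 coding transcript of each gene (GRCm38, CCDS transcripts preferred) was searched in its last 150 bases, on the transcript strand, for the cytoplasmic polyadenylation element (TTTTAT, or its variant TTTTAAT). Its last 50 bases were searched in the same way for the poly(A) signal (AATAAA, or its variant ATTAAA), which can overlap the longer form of the element. The element was found in 2 of the 10 members, Dcp1a and Ybx2, in 21.6% of all 21809 coding genes and in 24.8% of the 10436 matched genes tested between stages. The signal was found in 9 of the 10 members, all but Ybx2, and in 72.2% of coding genes. A match is a description of letters, not a shown binding site. For Zar1l, whose signal overlaps the annotated stop codon, most of the 150 bases searched were coding sequence. Its lack of an element there says little about a 3′ UTR. Dcp1a held 3 elements, the nearest starting 43 bases from the end and running into the poly(A) signal, and Ybx2 held 1, starting 62 bases from the end. The 4 windows are those of the 2 members with an element and, for contrast, of Zar1 and its relative Zar1l, which have only the signal. Capitals mark the element, the signal or their overlap, and all are written 5′ to 3′.
Dcp1a: atatgtttgcaaatatatttTTTTAATAAA
Ybx2: cctctgaagccaTTTTATgaactgtcatgt
Zar1: aagcctgtgAATAAAaggtattgcaaacaa
Zar1l: cttcagcttaaAATAAAccttgtgacagtg
In this annotation all 4 lie in the last exon and in the 3′ UTR, except that the Zar1l window begins in coding sequence and its signal overlaps the stop codon. Their positions are chr14:30527001-30527030 (plus strand), chr11:69941532-69941561 (plus strand), chr5:72577114-72577143 (minus strand) and chr5:150507055-150507084 (minus strand) of GRCm38. In the deposited tables, which use mm9, Dcp1a is listed on chromosome 14 from 31292750 to 31340242, Ybx2 on chromosome 11 from 69749400 to 69755101, Zar1 on chromosome 5 from 72968352 to 72972323 and Zar1l on chromosome 5 from 151309643 to 151320734.

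Between the oocyte and the 4-cell embryo, 7 of the 9 tested members fell and 1 rose. In the limma test of stage over all 6 libraries, with genotype as a term, 27.8% of 11451 genes were lower and 28.2% higher at the 4-cell stage at a Benjamini-Hochberg adjusted p of 0.05, and among genes with a GV mean of at least 100 FPKM, as 7 members have, 47.4% were lower. The members that fell were Zar1l (log2 difference -5.73 ± 0.762, SE), Pabpn1l (-5.70 ± 0.678), Zar1 (-5.28 ± 1.07), Cpeb1 (-4.90 ± 0.527), Eif4e1b (-3.72 ± 1.03), Ybx2 (-3.02 ± 0.624) and Dcp1a (-2.28 ± 0.667). The limma adjusted p was 0.000693 for Cpeb1, 0.00142 for Zar1l, 0.00679 for Zar1 and 0.0267 for Dcp1a, the largest of the 7. Zfp36l2 rose by 1.79 ± 0.388 (adjusted p = 0.00895) and Dcp2 differed by -0.45 ± 0.402 (adjusted p = 0.374). The median over the members tested was -3.72, against -0.10 over all genes tested and -1.32 over genes with a GV mean of at least 100 FPKM. As the members were chosen with earlier results of these data known, these contrasts with other genes are descriptive only.

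The level left at the 4-cell stage was higher in the YAP-null library for each member that fell; with 1 embryo library per genotype this difference between genotypes was not tested. Zar1 was at 130.4 and 3.60 FPKM in the YAP-null and wild-type 4-cell libraries, and at 750.2 and 1088 FPKM in YAP-null against 865 and 1185 FPKM in wild-type GV oocytes. So the FPKM in YAP-null embryos was 14.2% of the oocyte mean, and that in wild-type embryos 0.352%. These shares, here and below, are ratios of FPKM between stages and not amounts of oocyte RNA surviving in each embryo. Zar1l was at 19.1 and 1.36 FPKM in the YAP-null and wild-type 4-cell libraries, and at 521 and 248 FPKM in YAP-null against 476 and 283 FPKM in wild-type GV oocytes, which leaves 4.96% and 0.359%. Both 4-cell libraries lay below all GV libraries for both genes.

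Eif4e1b was at 228 and 8.20 FPKM in the YAP-null and wild-type 4-cell libraries, and at 442 and 832 FPKM in YAP-null against 437 and 828 FPKM in wild-type GV oocytes. That is 35.8% of the oocyte level in YAP-null and 1.30% in wild-type embryos. In the YAP-null embryos Eif4e1b still ranked 262 among all symbols, against 5813 in wild-type embryos.

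Among the genes of RNA-binding proteins, Ybx2 was at 75.3 and 14.3 FPKM in the YAP-null and wild-type 4-cell libraries, and at 212 and 372 FPKM in YAP-null against 201 and 367 FPKM in wild-type GV oocytes. Cpeb1 was at 17.5 and 4.07 FPKM in the YAP-null and wild-type 4-cell libraries, and at 229 and 357 FPKM in YAP-null against 236 and 352 FPKM in wild-type GV oocytes. The share left was thus 25.8% and 5.05% for Ybx2, and 5.97% and 1.38% for Cpeb1, YAP-null first. Pabpn1l was at 11.6 and 1.42 FPKM in the YAP-null and wild-type 4-cell libraries, and at 430.5 and 180.4 FPKM in YAP-null against 385 and 223 FPKM in wild-type GV oocytes. Its share left was 3.81% in YAP-null embryos, the lowest of the members that fell there, and 0.466% in wild-type embryos.

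Of the decapping pair, Dcp1a was the abundant partner. Dcp1a was at 83.4 and 9.61 FPKM in the YAP-null and wild-type 4-cell libraries, and at 144 and 149 FPKM in YAP-null against 125 and 161 FPKM in wild-type GV oocytes, so that 56.8% and 6.71% of the oocyte level remained. Dcp2 was at 8.06 and 4.30 FPKM in the YAP-null and wild-type 4-cell libraries, and at 6.45 and 11.7 FPKM in YAP-null against 6.50 and 10.3 FPKM in wild-type GV oocytes. The YAP-null embryo value of Dcp2 lay within the range of its GV libraries, and the wild-type one below it.

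Zfp36l2 rose, and was at 7.36 and 14.4 FPKM in the YAP-null and wild-type 4-cell libraries, and at 1.85 and 3.28 FPKM in YAP-null against 1.77 and 2.44 FPKM in wild-type GV oocytes, 2.87-fold and 6.83-fold the oocyte mean. Zfp36l1 was listed at 0 in YAP-null embryos and at 0.374 FPKM in wild-type embryos, and at 0.464 and 0.364 FPKM in YAP-null against 0.219 and 0.195 FPKM in wild-type GV oocytes.

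**Figure D2:**
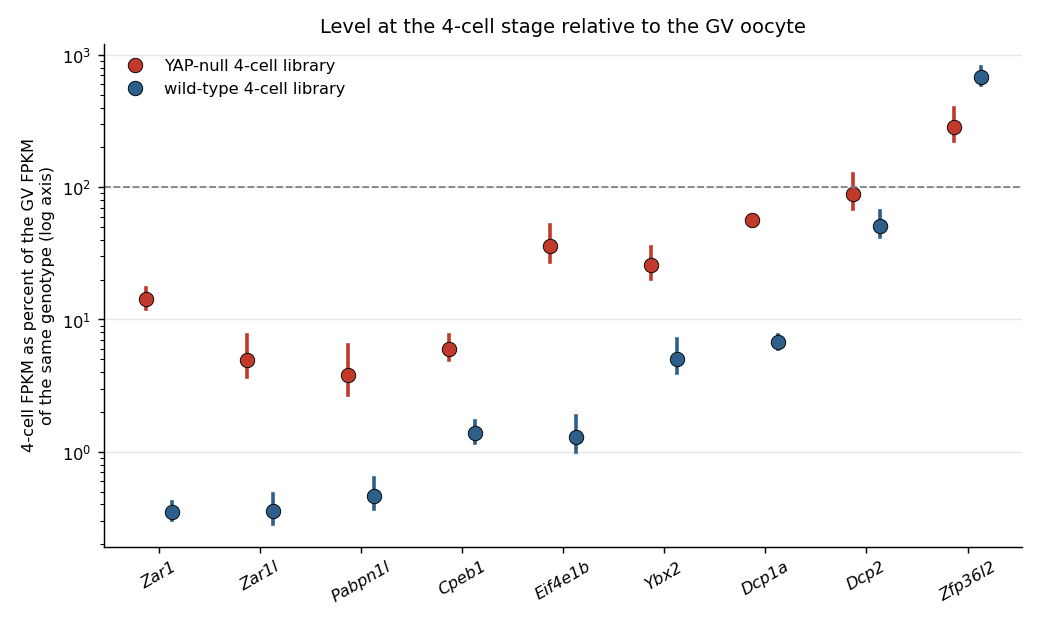
FPKM at the 4-cell stage as a percent of the mean GV FPKM of the same genotype (log axis), for the YAP-null and the wild-type 4-cell library; points use the mean of both GV libraries and lines span the values against each GV library alone. The YAP-null points lie above the wild-type points for every gene drawn except Zfp36l2 (Zfp36l1, listed at 0 in YAP-null embryos, is not drawn); the widest gaps are at Zar1 (14.2% and 0.352%) and Eif4e1b (35.8% and 1.30%).

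Removing a 4-cell library changed the stage calls. Without the wild-type 4-cell library 4 of the members passed in limma as lower and none as higher, since Ybx2 (adjusted p = 0.111), Eif4e1b (0.232), Dcp1a (0.16) and Zfp36l2 (0.104) no longer did; without the YAP-null 4-cell library all 7 passed as lower and Zfp36l2 as higher. All genes past the threshold numbered 2965 without the wild-type and 4215 without the YAP-null 4-cell library, against 6408 with both, and the member median was -1.89 and -5.84 in these fits. Dcp1a also missed the threshold without wild-type GV library 1 (adjusted p = 0.0547).

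In GV oocytes no difference between YAP-null and wild-type libraries was detectable for the tested members beyond the spread between libraries. None of the 9 members tested passed limma, and 0% of 10462 genes did, with 22 genes (0.21%) at an unadjusted p under 0.05 and none of them a member. This fit has no term for the library number, and same-numbered libraries deviated together (r = 0.849). The spread it used thus includes the difference between numbers, so a share as low as 0.21% does not show that the genotypes were alike. With the number as a block 2 genes passed, neither a member. The log2 differences, YAP-null minus wild type, ran from -0.16 ± 0.437 for Zar1 to 0.18 ± 0.400 for Zfp36l2 (SE, adjusted p = 1.00 for both), with a median of 0.01 against 0.00 over all genes tested. The groups overlapped for all 9 members and were apart for 10.8% of the genes tested, a share at which 9 members are too few to show a difference. For Zfp36l1, which was not tested, both YAP-null GV values (0.464 and 0.364 FPKM) lay above the wild-type GV values (0.219 and 0.195 FPKM).

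For 7 of the 9 tested members, all but Dcp1a and Zfp36l2, both differences within a number were smaller than both differences between the libraries of 1 genotype on the log2(FPKM + 1) scale. Eif4e1b was at 1.01 and 1.00 times the wild-type level in the YAP-null libraries numbered 1 and 2, Cpeb1 at 0.969 and 1.02 times, Ybx2 at 1.05 and 1.01 times and Zar1 at 0.867 and 0.918 times. Over all 9 tested members the largest difference within a number was 0.31 on the log2(FPKM + 1) scale, so none reached 2-fold, as 1.65% and 1.51% of all genes did in libraries 1 and 2. Dcp1a was at 1.15 and 0.924 times the wild-type level within numbers 1 and 2, while library 2 held 1.03 times the level of library 1 in YAP-null and 1.29 times in wild-type oocytes. Library 2 held more Eif4e1b than library 1, 1.88 times in YAP-null and 1.90 times in wild-type oocytes, and more Ybx2, 1.76 and 1.83 times. Zar1l went the other way, at 0.477 and 0.595 times, and so did Pabpn1l, at 0.419 and 0.578 times in YAP-null and wild-type oocytes. In all, 7 tested members were higher and 2 lower in library 2 than in library 1 in both genotypes. The share of all genes with the same direction in both genotypes was not counted, nor was that for the comparison opening this paragraph. Same-numbered libraries deviated together across 10462 genes (r = 0.849), so a shared direction was general in these libraries and not particular to the members. On the log2(FPKM + 1) scale Zar1l and Pabpn1l were at least 2-fold lower in library 2 in YAP-null oocytes (-1.07 and -1.25, against -0.75 and -0.79 in wild type), and no member was that much higher. Over all genes tested, 18% and 16.5% were at least 2-fold higher in library 2 in YAP-null and wild-type oocytes, and 8.76% and 6.82% at least 2-fold lower. The labels do not say what the numbers stand for.

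**Figure D3:**
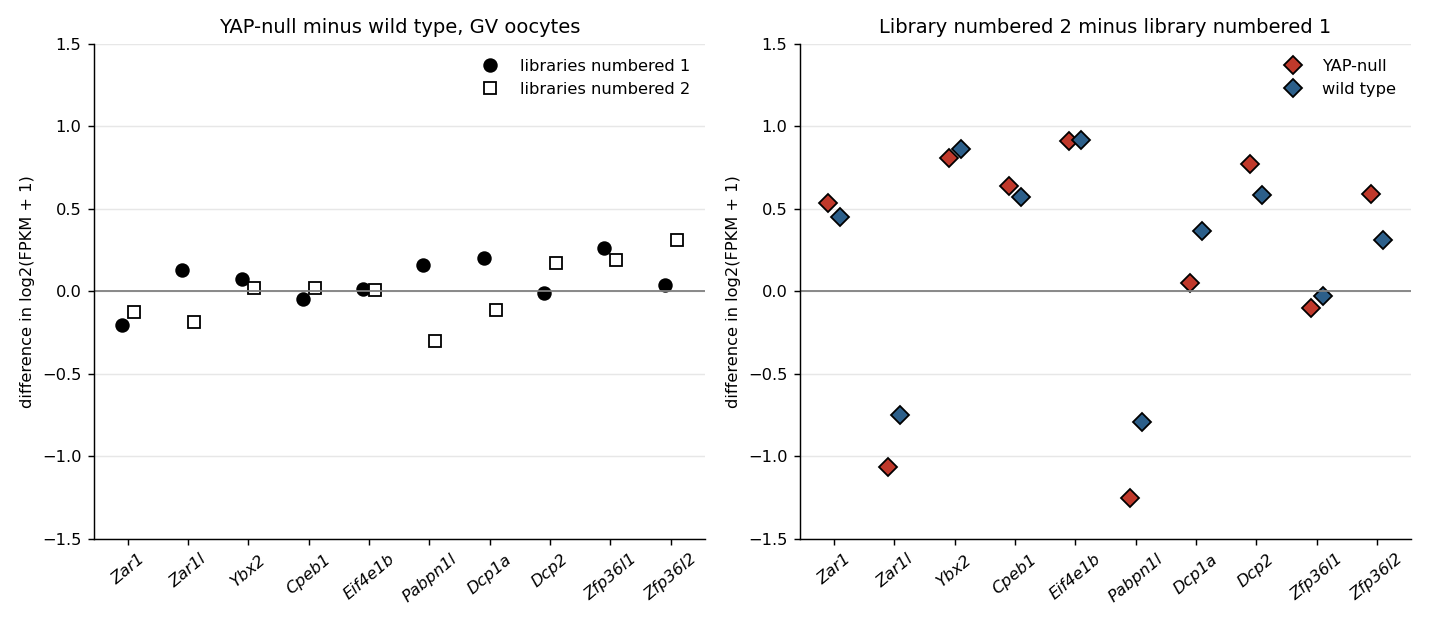
Differences in log2(FPKM + 1) between GV libraries for each gene: YAP-null minus wild type within the libraries numbered 1 and 2 (left), and library 2 minus library 1 within YAP-null and within wild type (right); each point is 1 pair of libraries. The left differences stay within 0.314 of 0 and the right ones run in the same direction in both genotypes. They run down for Zar1l and Pabpn1l and, slightly, for Zfp36l1 (-0.10 in YAP-null and -0.03 in wild type), which was under 1 FPKM.

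At the 4-cell stage 7 of the 9 members compared were at least 2-fold higher in the YAP-null library and none was that much lower, where 17.7% of 10854 genes were higher and 9.97% lower by that measure. Of all genes that far apart 64.0% were higher in YAP-null embryos, 53.1% with quantile normalization and 75.6% with libraries rescaled to the same sum. With 1 library per genotype the spread between embryo samples is unknown, and no test was made. The members were chosen with earlier results of these data known, so their shares beside those of other genes are descriptive only. The 7 members are those with a GV mean of at least 100 FPKM, and 36.5% of the 775 genes at that oocyte level were also at least 2-fold higher in YAP-null embryos and 6.45% lower. As ratios of FPKM, Zar1 was 36.2-fold higher, Eif4e1b 27.8-fold, Zar1l 14.0-fold, Dcp1a 8.68-fold, Pabpn1l 8.20-fold, Ybx2 5.25-fold and Cpeb1 4.30-fold. In log2(FPKM + 1), Zar1 had rank 6 and Eif4e1b rank 12 among all genes compared, counted from the most positive difference. At least a 4-fold difference on that scale was found for 6 of the 7, all but Cpeb1 (1.87), against 4.56% of all genes and 20.5% of those with a high oocyte level. Of the 1687 genes whose mean 4-cell level lay at least 4-fold below the GV mean, 6 were members, and all 6 of these were at least 2-fold and 5 at least 4-fold higher in YAP-null embryos. In that set, which both 4-cell values helped to choose, 37% and 13.4% of genes were higher by these measures and 3.62% at least 2-fold lower. Dcp2 was 1.87-fold higher, and Zfp36l2 stood at 0.511 times the wild-type level.

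The authors' bounds of the YAP-null and wild-type 4-cell values did not overlap for any of the 10 members. The share of all genes with bounds apart was not counted, so this does not set the members apart from other genes. For Zfp36l1, listed at 0 in YAP-null embryos, both YAP-null bounds were also 0. The bounds were 216 to 240.5 and 6.50 to 9.92 FPKM for Eif4e1b, 78.5 to 85.5 and 8.61 to 10.6 FPKM for Dcp1a, and 7.31 to 8.80 and 3.82 to 4.77 FPKM for Dcp2. These bounds describe 1 library each and their confidence level is not given. For Zar1, Zar1l, Ybx2 and Pabpn1l at least 1 of the 6 deposited values lay outside its own bounds, 1 of these at the 4-cell stage (Zar1, YAP-null). The median log2 difference over the members was 2.38, against 0.05 over all genes and 0.39 over genes with a GV mean of at least 100 FPKM.

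Oocyte markers, taken as a sum, moved with the members in these libraries. The 12 markers summed to 974 and 159 FPKM in the YAP-null and wild-type 4-cell libraries, against 6816 to 9253 FPKM in GV oocytes. All 12 reached 1 FPKM in the YAP-null embryos and 10 in the wild-type ones. Among the 12, Sohlh1 went the other way, as it was listed at 0 in every GV library. Markers of the cleavage embryo (12 genes) summed to 966 and 1035 FPKM in the YAP-null and wild-type 4-cell libraries, against 426 to 694 FPKM in GV oocytes, and Cdx2 was listed at 0 in YAP-null embryos. Blood and stroma markers (11 genes) summed to 26.9 and 76.7 FPKM in the YAP-null and wild-type 4-cell libraries, against 1.26 to 3.39 FPKM in GV oocytes. Of these, 1 reached 1 FPKM in the YAP-null and 7 in the wild-type 4-cell library. Sperm markers (6 genes) summed to 5.09 and 0.153 FPKM in the 4-cell libraries, YAP-null first, and to 3.64 to 10.2 FPKM in GV oocytes. In the YAP-null 4-cell library every sperm marker but Prm2 was listed at 0. The part of these in the result was not tested. In bulk libraries, fewer cells of a type and less RNA per cell cannot be told apart.

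**Figure D4:**
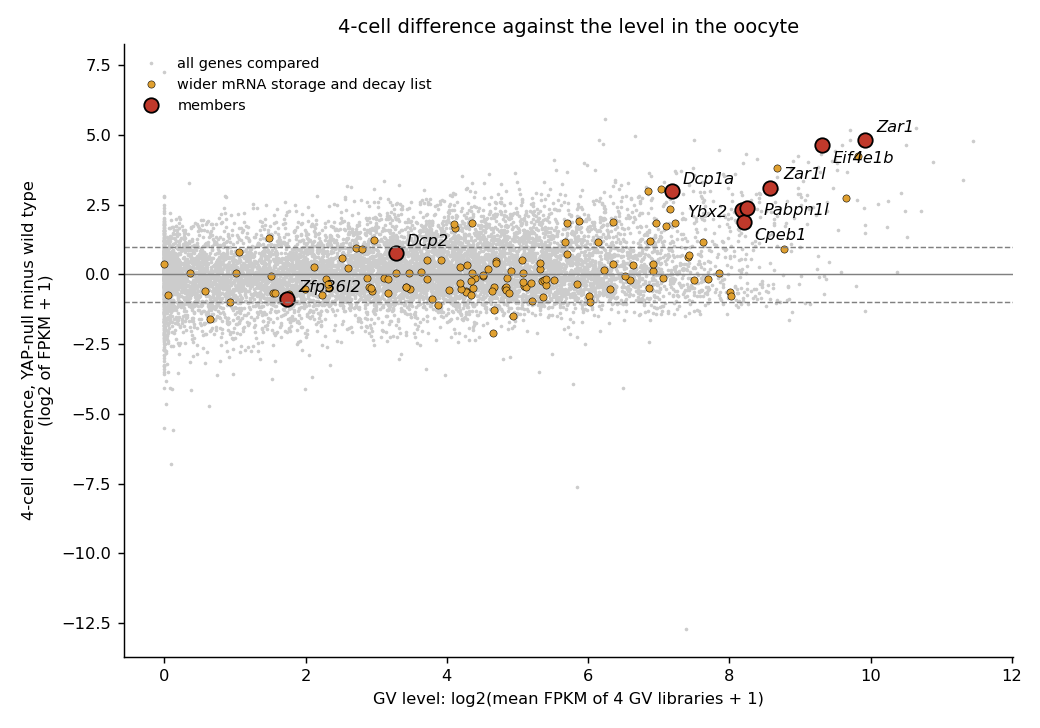
Difference between the 4-cell libraries, YAP-null minus wild type in log2(FPKM + 1) (vertical), against the mean GV level in log2(FPKM + 1) (horizontal), for all 10854 genes compared; dashed lines mark 2-fold. Red points are the 9 members compared and orange points the wider list of mRNA storage and decay genes; Zar1 and Eif4e1b lie at the upper right, and Zfp36l2 at -0.88, above the lower 2-fold line.

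Eif4e1b, Pabpn1l, Ybx2 and Cpeb1 each held a smaller share of the summed FPKM of their families in both 4-cell libraries than in any GV library. Eif4e1b made up 38.1% and 1.76% of the summed FPKM of Eif4e1b, Eif4e, Eif4e2 and Eif4e3 in the YAP-null and wild-type 4-cell libraries, against 63.0% to 80.8% in the GV libraries. Eif4e, the general cap-binding factor, was at 253.5 and 362 FPKM in the 4-cell libraries, YAP-null first, and rose by 1.95 on the log2 scale between stages (limma adjusted p = 0.00493). Eif4e3, another relative, was at 43.2 and 4.27 FPKM in the YAP-null and wild-type embryos and 119 to 144 FPKM in GV oocytes.

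Pabpn1l held 5.85% and 0.645% of the sum with Pabpn1, the nuclear poly(A)-binding protein gene, in the YAP-null and wild-type 4-cell libraries, and 80.7% to 92.9% in GV oocytes. Pabpn1 rose by 2.34 between stages (adjusted p = 0.00200, limma). In the cytoplasmic pair, Pabpc1l, the oocyte form, was at 9.54 and 1.09 FPKM in the YAP-null and wild-type embryos and at 136 to 152 FPKM in GV oocytes, while Pabpc1, the general form, was at 173 and 318 FPKM in the embryos and at 11.7 to 14.0 FPKM in GV oocytes.

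Ybx2 held 15.0% and 1.93% of the sum with Ybx1 and Ybx3 (listed under its older symbol Csda) in the YAP-null and wild-type 4-cell libraries, and 38.6% to 52.4% in GV oocytes. Ybx1 rose by 2.90 between stages and Ybx3 fell by 1.40 (limma adjusted p = 0.00229 for Ybx1 and 0.0228 for Ybx3). Cpeb1 held 33.7% and 13.3% of the Cpeb family in the YAP-null and wild-type embryos and 94.4% to 95.9% in GV oocytes; Cpeb2 rose by 2.81 and Cpeb4 by 2.36, and Cpeb3 differed by -0.76 (adjusted p = 0.144, limma). Zfp36, the founding member of the AU-rich element family, rose by 3.23 (adjusted p = 0.00157, limma), and was at 11.4 and 23.3 FPKM in the YAP-null and wild-type 4-cell libraries. Dcp1b, the relative of Dcp1a, was under 1 FPKM in every library.

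**Figure D5:**
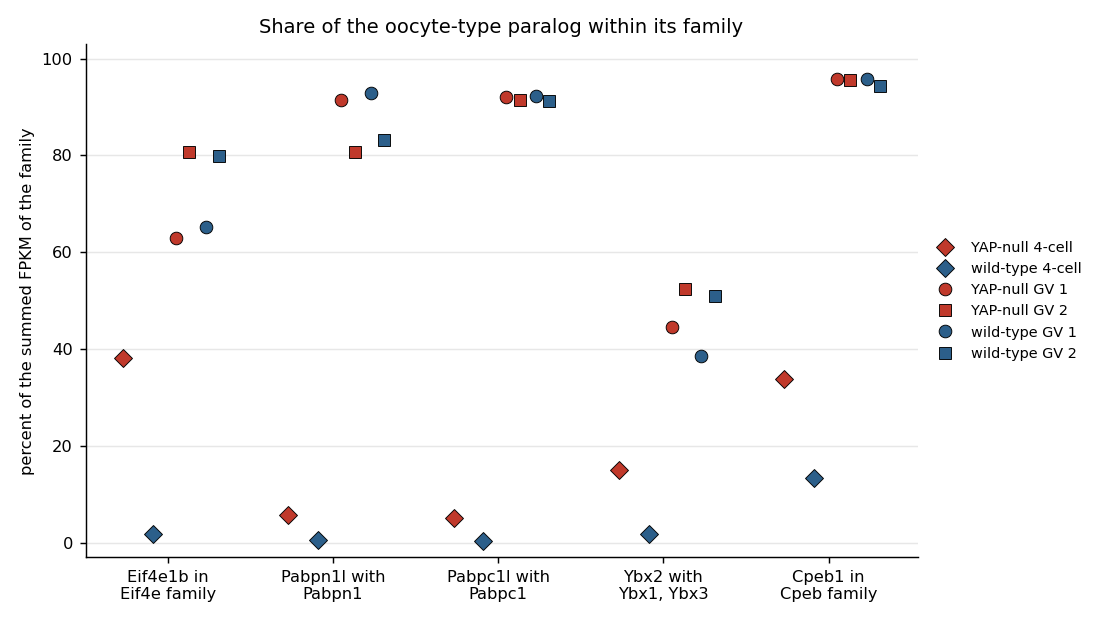
Percent of the summed FPKM of a gene family held by its oocyte-type member (vertical), for 5 families, in each of the 6 libraries; each point is 1 library. In GV oocytes Cpeb1, Pabpn1l and Pabpc1l hold over 80% and in the wild-type 4-cell library the oocyte-type forms hold from 0.342% to 13.3%, with the YAP-null 4-cell library above it in all 5 families.

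The wider machinery was followed with a list of 135 other genes of mRNA storage, polyadenylation and decay. Of these, 127 were compared at the 4-cell stage, with 21 at least 2-fold higher in YAP-null embryos, 5 lower (17.7% and 9.97% over all genes), and a median of -0.13. Between stages 27 of 129 tested genes fell and 38 rose (27.8% and 28.2% over all genes), with a median of 0.25. In GV oocytes none of 124 passed limma, 4 were higher and 5 lower with no overlap of the groups (5.1% and 5.68% over all genes), and the median was 0.04.

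Among those averaging 10 FPKM or more, the largest YAP-null excess at the 4-cell stage was that of Cpsf4l, a relative of a cleavage and polyadenylation subunit, at 55.0 and 1.98 FPKM in YAP-null and wild-type embryos and 492 to 1332 FPKM in GV oocytes. Btg4, the adaptor of the CCR4-NOT deadenylase, was higher by 3.81 on the log2 scale, Eif4e3 by 3.07, the deadenylase subunit gene Cnot6l by 2.99 and the oocyte KH-domain gene Khdc1b, which has close copies, by 2.73. In the same abundance range, those at least 2-fold lower in YAP-null embryos were Papolg, a poly(A) polymerase gene, listed at 0 in YAP-null embryos and at 3.25 FPKM in wild-type embryos, the cleavage endonuclease gene Cpsf3 (11.6 and 34.0 FPKM), the decapping activator gene Lsm4 (17.3 and 42.6 FPKM) and the ribosome rescue gene Pelo (6.66 and 15.5 FPKM).

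The genes of this list that fell most between stages were Cpsf4l (-5.98), Pabpc1l (-4.93), the RNA-binding repressor gene Patl2 (-4.62), Dazl (-3.92), which activates stored mRNAs in germ cells, and Lsm14b (-3.72), a component of oocyte storage particles. Those that rose most were Eif4ebp1 (4.55), a repressor of the cap-binding factor, Smg5 (4.30), of nonsense-mediated decay, Pabpc1 (4.10), the decay factor gene Khsrp (4.05) and the stress granule gene G3bp1 (3.36). All 10 passed the limma test of stage.

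Genes most like the members across the 6 libraries were sought among 6210 other symbols averaging 10 FPKM or more, by the distance between centred log2(FPKM + 1) profiles. Zar1 was nearest to Ooep (0.759), H1foo (0.855) and Oas1e (0.952), Zar1l to Oas1h (0.432), Eif4e1b to Zbed3 (0.613) and Pabpn1l to Nudt7 (0.399). Cpeb1 lay nearest to Camsap3 (0.233), Ybx2 to Afap1l2 (0.270), Dcp1a to Smim14 (0.367), Dcp2 to Slain2 (0.164) and Zfp36l2 to Nap1l1 (0.183). Among the members the closest pair was Zar1l and Pabpn1l (0.518), closer than Zar1 and Zar1l (1.95). Both genes of the closest pair had the largest falls of the members in the stage test over both genotypes, although in wild type alone Zar1 had a larger difference (-7.78, against -7.28 for Zar1l and -6.93 for Pabpn1l), and both were lower in GV library 2 than in GV library 1.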

How the data were processed

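Per the file headers, each of the 6 libraries has a deposited gene table with an FPKM value, its lower and upper bound and a locus. The submitters' processing notes name CASAVA 1.8, TopHat and mm9; the quantification tool, its annotation and how mRNA was purified were not stated. Each table has 23813 lines; 1 line with the status FAIL was dropped, and 260 symbols at several loci were summed. The authors' FPKM values were compared as log2(FPKM + 1), a scale that understates changes of low genes, over genes averaging 1 FPKM or more in the libraries compared. GV oocytes (2 against 2 libraries) and stages (2 4-cell against 4 GV libraries, genotype as a term) were tested two-sided with limma 3.58.1 (limma-trend, R 4.3.3), adjusting over all genes by the method of Benjamini and Hochberg. Both fits were checked on simulated data. There the GV fit kept nearly all planted directions but called few of the planted changes, so a GV difference that did not pass may still be present. The simulated libraries varied independently, and changes were planted in abundant genes only. The difference shared by same-numbered GV libraries was not simulated, so the check does not show how the fits handle it. The 4-cell libraries were compared by a 2-fold size rule, "at least 2-fold" being on the log2(FPKM + 1) scale, and printed folds are ratios of FPKM. Stage shares are 4-cell FPKM over the mean GV FPKM. Relative depth came from the deposited bounds of 1880 genes. The members and the gene lists were chosen with earlier results of these data known. All members are named; of the wider list, relatives of the members and up to 5 genes per direction in the 4-cell and stage comparisons are named, and for each member up to 3 most alike genes could be. The alternatives were other pseudocounts, scalings, low-value filters, fits and libraries left out.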

Additional observations from a re-analysis of the deposited data

Results flagged for a closer look

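Zfp36l1, which was under 1 FPKM in every library, differed in direction between stages and between genotypes, and neither difference was tested. YAP-null against wild type, it was lower at the 4-cell stage, at -0.46 on the log2(FPKM + 1) scale, and higher in both YAP-null GV libraries than in both wild-type ones, by 0.23. From GV oocyte to 4-cell embryo it was lower in YAP-null, at -0.50, and higher in wild type, at 0.19.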

How the results depend on the processing

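The 7 members at least 2-fold higher in YAP-null 4-cell embryos stayed 7 in number under every pseudocount, scaling and filter tried and were 6 by a 4-fold rule; 1 member was at least 2-fold lower with quantile normalization, Zfp36l2 (-1.03). The median of the 9 members compared, 2.38, was 2.95 with a pseudocount of 0.1 and 1.92 with a pseudocount of 5. The number of all genes at least 2-fold apart, 3007, was 1275 with a pseudocount of 5, 1723 with a 5 FPKM filter and 696 by the 4-fold rule. The percent of them higher, 64, was 53.1 with quantile normalization and 75.6 with libraries rescaled to the same sum. That rescaling moved the median of all genes from 0.05 to 0.23 at the 4-cell stage (-0.08 with quantile normalization, -0.07 with median-ratio scaling) and from 0.00 to -0.13 in GV oocytes, and turned the GV differences of Ybx2 (-0.10), Eif4e1b (-0.14), Dcp1a (-0.11) and Dcp2 (-0.048) below 0. No member passed in GV oocytes under any alternative. Leaving out 1 GV library gave 2 to 7 genes past the threshold, in fits that take the lone library of a genotype to vary as the other genotype does. GV differences then ran from -0.43 to 0.10 for Zar1, -0.56 to 0.50 for Zar1l, -0.39 to 0.48 for Ybx2, -0.33 to 0.31 for Cpeb1, -0.12 to 0.47 for Zfp36l2, -0.45 to 0.47 for Eif4e1b, -0.70 to 0.55 for Pabpn1l, -0.14 to 0.23 for Dcp1a and -0.30 to 0.47 for Dcp2. With the replicate block 2 genes passed, neither a member; same-numbered libraries deviated together (r = 0.849 across 10462 genes), but the labels do not say that a number marks a shared animal or day. In the stage test, leaving out 1 library gave 2965 to 6332 genes against 6408, 4 to 7 members lower, 0 to 1 higher, and a member median from -5.84 to -1.89; Dcp1a also missed the threshold with no low-value filter (adjusted p = 0.05001). The median wild-type stage difference, -5.84, was -5.02 with a pseudocount of 5. The cause of these shifts was not tested. No paired analysis was possible because the 4-cell stage has 1 library per genotype, for the 4-cell and stage comparisons. With 1 embryo library per genotype, the spread between embryo samples could not be set against the 4-cell differences.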

Other observations

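Transcripts with and without a cytoplasmic polyadenylation element in the last 150 bases differed little in these libraries, as a description over genes. Among the tested genes matched by symbol, the 2588 with TTTTAT or TTTTAAT had a median stage difference of -0.14 and a median YAP-null minus wild-type difference at the 4-cell stage of 0.11, against -0.07 and 0.02 for the 7848 without. The element was found in 24.7% of the genes that fell and 23.7% of those that rose between stages.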
